A study of Mus musculus with 426 samples.

Results

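The cells described here were GFP+ tumour cells sorted one by one from peritoneal metastases of mice that carried an orthotopic pancreatic tumour. They were taken as every single-cell library with this label, without the bulk libraries, and kept when at least 500 genes had a count of 1 or more and the RNA total reached 10000 counts. The 88 libraries came from 86 cells, because 2 cells of mouse 1 were sequenced as 2 libraries each (averaged here), and 85 cells passed, 39 from mouse 1, 24 from mouse 2 and 22 from mouse 3. The series holds 420 single-cell and 6 bulk libraries. In each library messenger RNA and genomic DNA of the same cell were amplified and sequenced together, and the reads were separated into RNA counts per gene and DNA counts per genome bin. Male C57BL/6 hosts, 6 to 8 weeks old at injection, received 50000 cells of a pancreatic tumour line tagged with EGFP (KPC1199-EGFP) in matrigel into the pancreas, and tumours grew for 6 to 8 weeks. The labels name GFP and a Calcein violet live/dead stain as the markers of the metastasis sort, give the cell type as tumour, and state no antibody gate for these cells. All hosts carried the same line, and the labels name no treatment that differs between the mice. The mice can differ as hosts, in the injected cells that reached the peritoneum, and in handling and library depth. These were not told apart. Cells are named by mouse and by the number in the library's label.

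Peritoneal spread is a common route of pancreatic ductal adenocarcinoma, in which cells shed from the pancreas attach to the lining of the abdominal cavity. Carcinoma cells can hold an epithelial state, with the adhesion protein Epcam, the junction protein Cdh1 and simple-epithelium keratins, or a mesenchymal state, with the filament protein Vim and matrix genes that fibroblasts also use. Tumours of this kind are usually aneuploid, so DNA of the same cell separates tumour cells from diploid host cells and can mark lineages within a tumour.

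RNA totals ran from 18769 to 4213950 counts in mouse 1 (median 1268070), from 24242 to 14370200 in mouse 2 (median 1239120) and from 40876 to 3757430 in mouse 3 (median 644368). Part of the gene counts tracked DNA. The counts of 1455 olfactory and vomeronasal receptor genes, which tumour cells are not known to use, rank-correlated with the cell's DNA counts at 0.94, 0.84 and 0.94 in mice 1, 2 and 3, and the number of genes detected did so at 0.95, 0.95 and 0.85. A low value of a gene, or its detection alone, is therefore not read as expression below, and counts of marked cells are also given with a gene counted only above the 99th percentile of the receptor genes of its cell.

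Some libraries also shared RNA. Over 13081 genes with a CPM (count scaled to a common RNA total per cell) of 100 or more in some cell, 5 pairs of cells within a mouse correlated at 0.7 or more on the log2(CPM + 1) scale, where the median pair of a mouse lay between 0.357 and 0.453. The pairs were cells 23 and 44 of mouse 1 (0.702), cells 40 and 45 (0.909) and 50 and 51 (0.706) of mouse 2, and cells 76 and 77 (0.753) and 88 and 89 (0.776) of mouse 3. The libraries of a pair differed in depth, from 28684 against 4105010 for cells 40 and 45 to 572824 against 2001750 for cells 77 and 76. Neighbouring numbers were more alike than other pairs, with a median of 0.411 against 0.353 in mouse 1, 0.461 against 0.451 in mouse 2 and 0.452 against 0.394 in mouse 3. Whether RNA passed between wells was not tested. Without the shallower cell of each pair the mitosis-marked share defined below was 52.5% in place of 52.9%, and the leukocyte-marked share 21.25% in place of 22.4%.

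Among the 6 genes given as markers of these cells, Epcam and Krt19 reached high values mainly in mouse 1, while Vim was high in most cells of every mouse. Vim was present in 84 of 85 cells, and its CPM (not scaled to gene length, so levels are compared between cells and not between genes) had a lowest, median and highest value of 0, 311 and 2784 in mouse 1, 180, 837 and 4629 in mouse 2, and 63.3, 731 and 2571 in mouse 3. Epcam had a median of 164 CPM in mouse 1, with a range of 0 to 7146, whereas its median was 0 in mice 2 and 3 and its highest cell there reached 17.3 and 66.3 CPM. At 100 CPM or more, Epcam was found in 22 of 39 cells of mouse 1 and in 0 of 24 and 0 of 22 cells of mice 2 and 3. With 1 sample a mouse and no second condition, no test of mice is possible, and the shares describe these 3 animals.

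Krt19, a keratin of ductal epithelium, was like Epcam higher in the median cell of mouse 1 than of the other mice. Its median was 69.97 CPM in mouse 1 (range 0.741 to 3238), 0 in mouse 2 (highest cell 283) and 1.37 in mouse 3 (highest cell 342), and it reached 100 CPM in 17, 1 and 1 cells. In mouse 1 the epithelial and mesenchymal markers sorted into separate cells only in part. Of its 39 cells, 29 held Vim, 22 Epcam and 17 Krt19 at 100 CPM or more. Vim and Krt19 were both at that level in 12 cells, Vim and Epcam in 12, and 4 held Epcam at 100 CPM with Vim under 10. Across the 39 cells Epcam rank-correlated with Krt19 at 0.68 and with Vim at -0.49, and Vim with Krt19 at -0.01. These cells share a sort and differ in depth, and the same values given the number of genes detected were 0.67, -0.55 and -0.06. In mice 2 and 3, where both genes were low in most cells, Epcam correlated with Krt19 at -0.13 and 0.33.

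Lgr5, a receptor for R-spondins that amplifies Wnt signalling and marks stem cells in the gut, was concentrated in few cells. Its lowest, median and highest values were 0, 3.68 and 4232 CPM in mouse 1, 0, 6.99 and 3237 in mouse 2, and 0, 43.5 and 2981 in mouse 3. Cells at 100 CPM or more numbered 9, 6 and 7, and those at 1000 CPM numbered 1, 2 and 3. The highest cell held 46.8% of the summed Lgr5 CPM in mouse 1 (cell 54), 42.6% in mouse 2 (cell 38) and 34.5% in mouse 3 (cell 75). Axin2, a feedback inhibitor and common readout of the Wnt pathway, did not mark the same cells: its median was at most 2.37 CPM, its highest cell reached 112, 218 and 338 CPM, and its rank correlation with Lgr5 was 0.26, 0.09 and 0.21. Over all 18 measured Wnt genes, Lgr5 among them, the sum had a median of 193, 213 and 240 CPM, while its highest cell reached 6098, 3241 and 3481 CPM. Lgr5 alone reached 4232, 3237 and 2981 CPM. In mouse 2 the highest sum was close to the highest Lgr5 value, so it does not show that other Wnt genes peaked there. In mice 1 and 3 the highest sum exceeded every Lgr5 value, so other Wnt genes added to it in those cells.

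**Figure D1:**
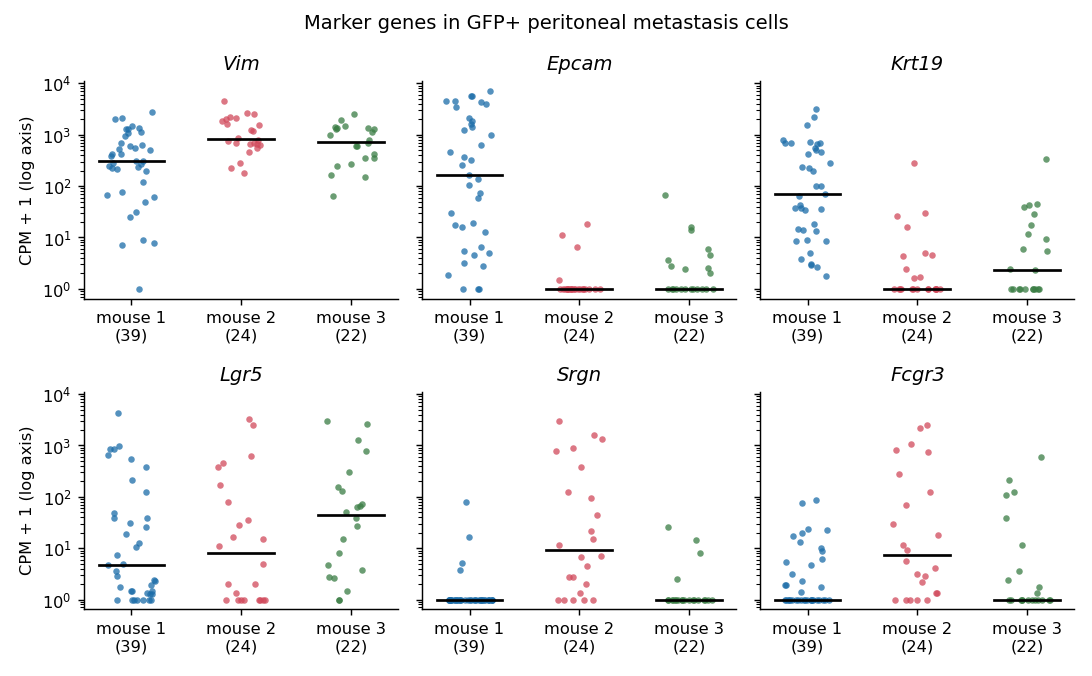
Each point is 1 GFP+ peritoneal metastasis cell; the y axis gives CPM + 1 on a log axis for Vim, Krt19, Lgr5, Srgn, Fcgr3 and Epcam, and the x axis the mouse with its number of cells. Epcam and Krt19 reach high values mainly in mouse 1, Vim is high in all mice, Lgr5 is high in few cells of each mouse, and Srgn and Fcgr3 reach 100 CPM or more mainly in mouse 2.

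The DNA of the same cells showed 2 distinct chromosome patterns. For 74 cells with at least 50000 DNA counts, the counts of each bin were divided by the mean of the cell's autosomal bins and by the same ratio in 53 CD45+ cells of the primary tumours, used as a diploid reference, and the median per chromosome was taken as a log2 ratio. Because each cell is scaled to its own mean, a ratio gives a level relative to the other chromosomes and not a copy number. The difference of chromosome 12 minus chromosome 8 split the cells: in mouse 1 it was 0.24 to 0.70 in 29 cells and -0.60 to -0.31 in 6 cells (cells 13, 16, 17, 19, 30 and 31), with no cell between. Cells at 0.2 or above are called chr8-low and cells at -0.2 or below chr12-low, a limit chosen after these values were seen. The name misdescribes cell 20 of mouse 1, which passed through a high chromosome 12 (0.56) and had chromosome 8 at 0.20.

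Mouse 2 held 16 chr12-low cells and 1 chr8-low cell (cell 46, at 0.78), and mouse 3 held 17 chr12-low cells and 5 cells within the limits, at -0.18 to 0.17. By this limit, chr8-low cells therefore made up most of mouse 1 and 1 cell elsewhere, and the chr12-low pattern was found in all 3 animals. Cell 46 of mouse 2 had chromosome 8 at -0.42 but also a high chromosome 12 (0.35), with 101019 DNA counts. Its contrast was thus not from chromosome 8 alone. Chromosome 8 had a median log2 ratio of -0.51 in the chr8-low cells of mouse 1, against 0.06 in its chr12-low cells, 0.02 in mouse 2 and 0.00 in mouse 3. Chromosome 12 had a median of 0.00 in the chr8-low cells of mouse 1, against -0.39, -0.38 and -0.39 in the other 3 sets. These 2 chromosomes define the types and are a description only.

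Some chromosomes that were not used to define the types also separated them within mouse 1. The X chromosome lay between -0.74 and 0.03 in the 29 chr8-low cells and between 0.33 and 0.58 in the 6 chr12-low cells, so the ranges did not overlap. Chromosome 3 lay between -0.15 and 0.39 in the chr8-low cells and between 0.45 and 0.65 in the chr12-low cells, again with no overlap. Chromosome 16 had a median of 0.22 against -0.15, with ranges of 0.00 to 0.34 and -0.22 to 0.00 that met at their ends. On every other chromosome outside those that define the types the ranges overlapped. An example is chromosome 19, at -0.30 to 0.49 in the chr8-low cells and 0.15 to 0.63 in the chr12-low cells. The 6 cells resembled mice 2 and 3 on chromosomes 3 and 16, where those mice had medians of 0.42 and 0.33, and of -0.07 and -0.10. They differed on the X chromosome, whose median was 0.40 in the 6 cells, 0.05 in mouse 2 and -0.23 in mouse 3. Other departures were common to all: chromosome 2 had medians of 0.36, 0.51, 0.51 and 0.49 in the chr8-low and chr12-low cells of mouse 1 and in mice 2 and 3, and chromosome 4 of -0.49, -0.35, -0.34 and -0.24.

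**Figure D2:**
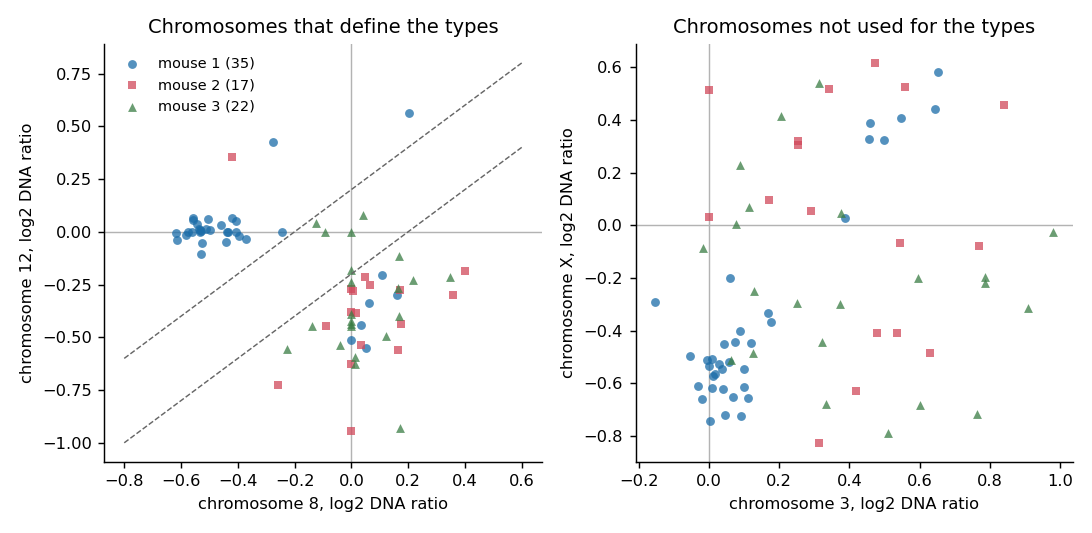
Each point is 1 cell with at least 50000 DNA counts (35, 17 and 22 in mice 1, 2 and 3); the axes give log2 DNA ratios of chromosomes 8 and 12, which define the types, on the left, and of 2 chromosomes not used for them on the right. The 6 chr12-low cells of mouse 1 lie apart from its 29 chr8-low cells in each panel, on the side of the cells of mice 2 and 3 on the left.

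In mouse 1 the DNA types went with different RNA. The summed CPM of 20 epithelial genes had a lowest, median and highest value of 144, 10211 and 29733 in the 29 chr8-low cells and of 63.8, 229 and 1027 in the 6 chr12-low cells. The sum of 16 fibroblast and matrix genes was 5.62, 185 and 24610 in the chr8-low cells and 270, 1737 and 9448 in the chr12-low cells. The log2 ratio of the epithelial to the fibroblast sum, which compares cells and whose zero has no meaning of its own, ran from -7.11 to 10.80 with a median of 5.80 in the chr8-low cells, and from -5.46 to -1.17 with a median of -2.11 in the chr12-low cells. It was below 0 in all 6 chr12-low cells and in 5 of the 29 chr8-low cells (cells 18, 22, 25, 27 and 35), so the ranges overlapped. In mice 2 and 3, where chr12-low cells prevailed, the median ratio was -8.02 and -6.08, and 1 of 24 and 1 of 22 cells lay above 0. The cell of mouse 2 was cell 36, whose epithelial and fibroblast sums were only 41.3 and 0 CPM and whose DNA was too shallow to class. The cell of mouse 3 was of neither DNA type.

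Gene by gene, keratins and Epcam were among those with a higher median in the chr8-low cells. Krt18 had a median of 3057 CPM (range 18.7 to 24466) in the chr8-low cells and of 14.4 CPM in the chr12-low cells, where the values were 54.6, 7.36, 4.97, 21.5, 729 and 5.70 in cells 13, 16, 17, 19, 30 and 31. Epcam had a median of 364 CPM in the chr8-low cells, and its values in the same 6 cells were 71.8, 0, 0.828, 0, 1.76 and 2.14. Krt7, another duct keratin, had medians of 107 and 0.970 CPM, and Clu, a secreted chaperone, of 776 and 2.06 CPM. No chr12-low cell reached 100 CPM of Epcam, Krt19, Krt7 or Cdh1, whereas 18, 15, 15 and 9 of the 29 chr8-low cells did.

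Other genes had a higher median in the 6 chr12-low cells. S100a4, a calcium-binding protein of motile and mesenchymal cells, was at 295, 293, 105, 266, 240 and 138 CPM in cells 13, 16, 17, 19, 30 and 31, against a median of 0.722 CPM in the chr8-low cells, of which 4 of 29 reached 100 CPM (highest 1134). Ccl2, the main monocyte-attracting chemokine, was at 44899, 34407, 15761 and 12990 CPM in cells 13, 17, 30 and 31 but at 47.8 and 21.5 CPM in cells 16 and 19, against a median of 10.2 CPM (highest 7869) in the chr8-low cells. Birc5, an inhibitor of apoptosis that acts at mitosis, was at 779 to 4473 CPM in the 6 cells and at a median of 37.6 CPM (0 to 6021) in the others. Ptn, a secreted growth factor, had medians of 366 and 0.946 CPM. The ranges of the types overlapped for each of these genes.

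Counted over whole lists, genes with a median at least 2 times higher in the chr12-low cells, on the log2(CPM + 1) scale, made up 19.4% of the 17931 genes present in at least 30% of the 35 cells, and those with a median at least 2 times higher in the chr8-low cells 9.56%. Of the 28 ribosomal protein genes, 24 were higher in the chr12-low cells and 0 in the chr8-low cells, and the median difference was 1.65 on the log2 scale against 0.16 over all genes. Of 25 mitosis genes 16 were higher and 1 was lower, of 20 DNA-synthesis genes 14 and 1, of 23 oxidative phosphorylation genes 13 and 1, of 16 fibroblast genes 10 and 0, and of 10 heat-shock genes 6 and 0. The reverse held for 14 of 19 epithelial genes, with 2 higher in the chr12-low cells, and for 8 of 15 hypoxia genes, with 1. The mesenchymal list, which holds S100a4, was mixed, with 6 of 16 genes higher in the chr12-low cells and 3 in the chr8-low cells. Its median sum was 2872 CPM in the chr8-low cells and 3152 CPM in the chr12-low cells, with overlapping ranges. Of 9 genes of class I antigen presentation, 4 were higher in the chr8-low cells and 0 in the chr12-low cells.

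Among those 4, H2-K1, a classical class I heavy chain, had a median of 284 CPM (0 to 5053) in the chr8-low cells and values of 20.1, 0, 4.38, 2.87, 2.77 and 1.57 in the 6 chr12-low cells. H2-D1, the other classical heavy chain, had medians of 103 and 0.691 CPM, while B2m, the light chain, had medians of 1687 and 1145 CPM. In mice 2 and 3 the median of H2-K1 was 0.499 and 0.521 CPM, and 5 of 24 and 2 of 22 cells reached 100 CPM. H2-D1 differed from it there, with medians of 124 and 35.3 CPM and 12 of 24 and 5 of 22 cells at 100 CPM, so the mostly chr12-low mouse 2 did not have the low H2-D1 of the chr12-low cells of mouse 1. The types of mouse 1 also differed in depth, with median RNA counts of 1268070 in the chr8-low and 2584240 in the chr12-low cells and median DNA counts of 1322460 and 1816340; the part of depth in these differences was not tested. Cells of 1 mouse are not replicates, so no test was made.

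**Figure D3:**
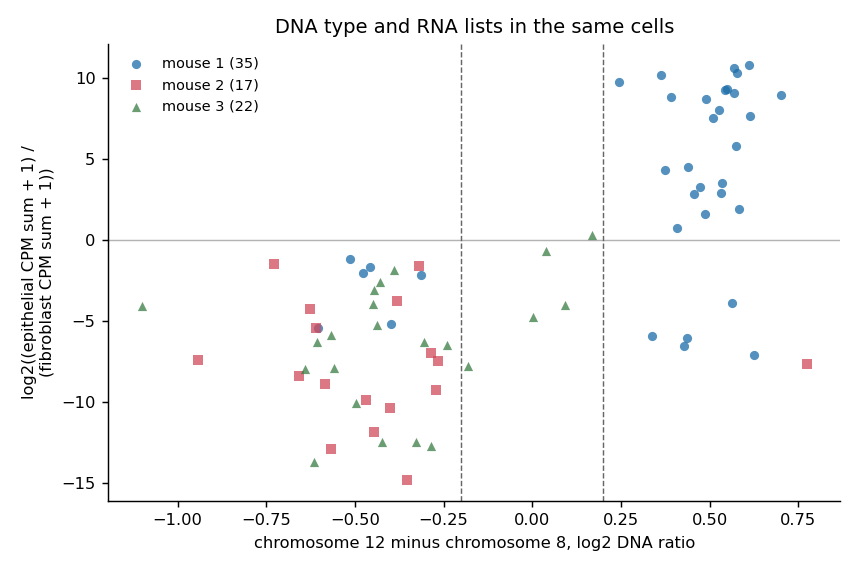
Each point is 1 cell with RNA and at least 50000 DNA counts; the x axis is the chromosome 12 minus chromosome 8 log2 DNA ratio and the y axis the log2 ratio of the epithelial to the fibroblast CPM sum (1 added to each). The 6 chr12-low cells of mouse 1 lie between -5.46 and -1.17 on the y axis, and 24 of its 29 chr8-low cells lie above 0.

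Clustering of the RNA alone gave 3 groups of cells, with a mean silhouette of 0.266 on a scale that ends at 1. The first held 33 cells, all of mouse 1, and was led by Tspan13, Epcam, Lgals2, Plac8 and Krt18 (the Epcam cluster). The second held 47 cells, 6 of mouse 1, 20 of mouse 2 and 21 of mouse 3, and was led by the collagens Col1a1 and Col3a1 with Jun, Ptn, Dcn and Sparc (the Col1a1 cluster). The third held 5 cells, 4 of mouse 2 and 1 of mouse 3, and was led by Pltp, the Fc receptor chain Fcer1g, Tcn2 and C5ar1 (the Fcer1g cluster). Cells 40 and 45 of mouse 2, the pair with the most alike RNA, belong to it although their fibroblast sums were 52991 and 61314 CPM, and cell 45 held Fcer1g at only 3.65 CPM. Genes that lead a cluster were used to form it and are a description.

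DNA, which the clustering did not use, followed it in mouse 1: 28 of 29 chr8-low cells were in the Epcam cluster and 5 of 6 chr12-low cells in the Col1a1 cluster, the exceptions being cell 35 and cell 13. The cluster name does not describe each cell, since cells 18, 22, 25 and 27 of the Epcam cluster held epithelial sums of only 171, 356, 179 and 370 CPM beside fibroblast sums of 23747, 5397, 10768 and 24610 CPM. The division by DNA type depended on the clustering. With 3000 genes in place of 1500, the cluster of 5 chr12-low cells also held 10 of the 29 chr8-low cells, and with 500 genes, or with cells of at least 2000 genes and 50000 counts, all 6 chr12-low cells shared a cluster with 26 and 29 chr8-low cells. Without the 7 cells with Y reads described below, or without the shallower cells of the like pairs, 2 clusters resulted in place of 3 (the mean silhouettes of 2 and 3 clusters over all cells were close, 0.254 and 0.266), while 5 of 6 chr12-low cells still lay apart from all but 1 of the chr8-low cells. The list sums above do not depend on clusters.

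The genes with the most uneven levels in every mouse included matrix, chemokine, cell-cycle and receptor genes. Ranked by spread above the trend with mean level among 8407 genes, and taking the worst rank over the 3 mice, Lum came first (rank 13), then Birc5 (32), Ccl2 (43), Cyr61 (50), Lgr5 (58), Dcn (86), Col1a1 (121) and S100a4 (123). Lum, a proteoglycan that spaces collagen fibrils, had a lowest, median and highest value of 0, 1.30 and 6864 CPM in mouse 1, 0, 311 and 4985 in mouse 2, and 0, 52.3 and 4740 in mouse 3. Dcn, a related proteoglycan, was at 0, 0.574 and 3780 CPM in mouse 1, 0, 1250 and 36501 in mouse 2, and 13.98, 381 and 10734 in mouse 3. Col1a1 was at 0, 4.90 and 4199 CPM, 0, 2147 and 15714, and 2.95, 1385 and 20639. In each mouse some cells were thus at or near 0 and others far higher, and in mice 2 and 3 the median cell was high.

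These matrix genes moved together only in part. Col1a1 and Col3a1, whose products form fibrillar collagen, rank-correlated at 0.84, 0.75 and 0.81 in the 3 mice (39, 24 and 22 cells), and Lum with Dcn at 0.48, 0.63 and 0.61. Col1a1 with Dcn gave 0.37, 0.54 and -0.01, so in mouse 3 the collagen and the proteoglycan were not ordered alike. Over the 15 of 16 fibroblast genes present in at least 30% of the cells of each mouse, the median pairwise correlation was 0.40, 0.27 and 0.34, against 0.22, 0.14 and 0.07 over all 8407 such genes. All cells of a mouse share a host and vary in depth, and no p is given for these values.

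Chemokine RNA was concentrated in some cells as well. Ccl2 was at 0, 20.9 and 44899 CPM (lowest, median, highest) in mouse 1, 9.02, 870 and 19294 in mouse 2, and 0, 134 and 9625 in mouse 3. Ccl7, a neighbouring monocyte chemokine gene, reached 1329, 9195 and 1628 CPM. Ccl2 and Ccl7 rank-correlated at 0.69, 0.63 and 0.76, and given the number of genes detected at 0.70, 0.62 and 0.76. Il33, an alarmin cytokine of the nucleus, varied over a like range, up to 7014, 2622 and 5400 CPM, but its correlation with Ccl2 was 0.12, 0.13 and -0.12. Cyr61 and Ctgf, matricellular targets of the YAP coactivator, correlated at 0.04, 0.03 and 0.07; Cyr61 had medians of 1.66, 330 and 330 CPM, and Ctgf of 0.686, 0 and 0.

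Genes most like each marker were taken as those with the highest lowest correlation over the 3 mice. For Vim they included Ywhaz, a 14-3-3 adaptor protein (0.46, 0.51 and 0.70), Anxa1, a phospholipid-binding protein (0.39, 0.83 and 0.77), and Spp1, the secreted matricellular protein osteopontin (0.41, 0.42 and 0.76). Spp1 was abundant throughout, with medians of 6987, 4228 and 3701 CPM, and made up 21.3% of the RNA counts in cell 22 of mouse 1. For Krt19 they were Lgals2, a galectin (0.43, 0.55 and 0.56), and Krt8, a partner keratin (0.55, 0.51 and 0.41), and in mice 2 and 3 these correlations rest on low Krt19 values. Given the number of genes detected, Timp1, an inhibitor of matrix proteases, came first for Vim (0.52, 0.48 and 0.51), and Spp1 and Anxa1 were no longer among the 8 closest. For Lgr5 the closest gene was Rabgap1, a GTPase activator (0.45, 0.38 and 0.49), or, given the number of genes detected, Gabpa, a transcription factor (0.41, 0.47 and 0.39). Only 7 of the 18 Wnt genes, Lgr5 among them, were present in enough cells to be ranked. None of the others of these was among the 8 closest, and the remaining Wnt genes could not appear there.

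Proliferation divided the cells in every mouse. Cells with at least 10 of 25 mitosis genes at 10 CPM or more numbered 22 of 39 in mouse 1 (56.4%, exact 95% binomial interval 39.6 to 72.2), 10 of 24 in mouse 2 (41.7%, 22.1 to 63.4) and 13 of 22 in mouse 3 (59.1%, 36.4 to 79.3). The intervals cover counting error only and overlap, and 18 of the 85 cells lay within 2 genes of the limit, so the class is a range. The number of mitosis genes rank-correlated with the number of DNA-synthesis genes at 0.63, 0.72 and 0.57. With a gene counted only above the receptor genes of its cell, 13, 9 and 10 cells remained in the class, 37.6% of all 85 against 52.9%. The number of mitosis genes rank-correlated with the share of receptor genes at 10 CPM at 0.51 in mouse 1, 0.29 in mouse 2 and 0.13 in mouse 3, and with RNA counts at -0.48, -0.01 and -0.26.

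Single mitosis genes differed in how many cells held them: Mki67 reached 100 CPM in 14, 5 and 10 cells of mice 1, 2 and 3, Top2a in 6 of each mouse, Birc5 in 22, 11 and 10, and Cenpe in 3, 7 and 13. Mki67, the proliferation antigen, had medians of 49.8, 0.877 and 76.4 CPM and highest values of 3709, 349 and 930 CPM. Top2a, the topoisomerase that untangles replicated chromosomes, had medians of 8.34, 16.8 and 7.20 CPM and highest values of 1204, 624 and 883. Ccnb1 and Cdc20, a mitotic cyclin and an activator of the complex that degrades it, correlated at 0.50, 0.77 and 0.87. Over the 24 of 25 mitosis genes that passed the 30% limit the median pairwise correlation was 0.32, 0.53 and 0.59, above the 0.22, 0.14 and 0.07 over all genes in each mouse, and given the number of genes detected it was 0.33, 0.43 and 0.60. The DNA spread of a cell, the SD of its log2 ratios over autosomes, had a median of 0.325 in the mitosis-marked and 0.324 in the other cells of mouse 1, 0.381 and 0.397 in mouse 2, and 0.367 and 0.346 in mouse 3, so it did not move one way.

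The mitosis genes are known for promoters with CCAAT boxes, read by the factor NF-Y, and with a cell-cycle element of the form TTTGAA. As members that move together, 5 of them are shown by the 150 bases before the RefSeq start (first listed start, GRCm38.p6), 5′ to 3′ on the strand of the gene, with CCAAT and TTTGAA on either strand in capitals (ATTGG is CCAAT on the other strand). Cenpf, Cks2 and Cenpe were among the genes most tied to the rest of the list, and Ccnb1 and Cdc20 form the pair above. The windows are chr1:189688087-189688236 (minus strand) for Cenpf, chr13:51645082-51645231 (plus) for Cks2, chr3:135212413-135212562 (plus) for Cenpe, chr13:100786487-100786636 (minus) for Ccnb1 and chr4:118437344-118437493 (minus) for Cdc20.
Cenpf: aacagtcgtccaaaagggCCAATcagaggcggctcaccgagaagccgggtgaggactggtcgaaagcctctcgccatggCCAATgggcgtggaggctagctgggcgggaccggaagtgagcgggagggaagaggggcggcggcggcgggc
Cks2: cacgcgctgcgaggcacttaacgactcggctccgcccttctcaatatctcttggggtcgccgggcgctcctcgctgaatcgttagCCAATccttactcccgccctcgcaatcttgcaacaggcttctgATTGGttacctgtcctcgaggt
Cenpe: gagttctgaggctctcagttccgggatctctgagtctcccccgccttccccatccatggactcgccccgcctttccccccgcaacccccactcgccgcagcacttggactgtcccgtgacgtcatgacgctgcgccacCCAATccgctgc
Ccnb1: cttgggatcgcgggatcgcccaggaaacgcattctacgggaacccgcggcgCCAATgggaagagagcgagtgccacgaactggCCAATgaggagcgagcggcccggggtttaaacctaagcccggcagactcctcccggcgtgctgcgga
Cdc20: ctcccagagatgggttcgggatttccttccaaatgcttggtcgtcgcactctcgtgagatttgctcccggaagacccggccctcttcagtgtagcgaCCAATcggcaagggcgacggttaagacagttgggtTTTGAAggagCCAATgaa
Cenpe holds 1 CCAAT and the other 4 hold 2 each, and TTTGAA is found in Cdc20 alone.

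Promoters on chromosome 18 were left out of the counts that follow. Over the 21 mitosis genes with a remaining promoter in the RefSeq table, 18 windows (85.7%) held CCAAT on either strand. This compares with 25.3% of all 27025 remaining windows of the same length and 28.9% of the 6557 windows of genes used for co-expression. TTTGAA was found in 6 of the 21 (28.6%), against 9.24% of all windows, and each of these 6 also held CCAAT. Of the 9 fibroblast genes with a promoter there, 1 held CCAAT and 2 held TTTGAA. A match describes letters in a window and not a bound site. In the cells, Cenpf, a kinetochore protein, reached 1560, 2378 and 1051 CPM in its highest cells with medians of 44.02, 3.47 and 21.3. Cks2, a small subunit of cyclin-dependent kinases, reached 631, 1256 and 2261 CPM with medians of 5.46, 59.9 and 33.3, and Cenpe, a kinetochore motor, 2448, 1078 and 2751 CPM with medians of 10.2, 3.36 and 189.

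**Figure D4:**
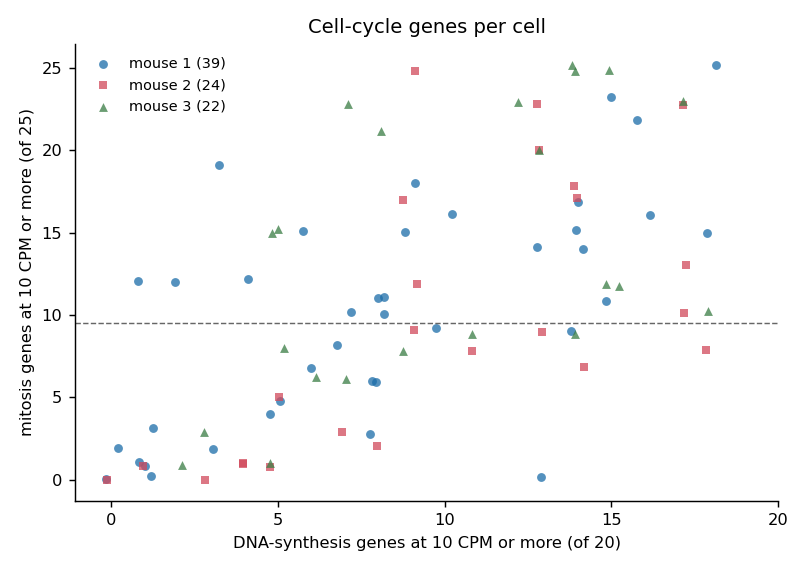
Each point is 1 cell, with a small random shift; the x axis counts DNA-synthesis genes (of 20) and the y axis mitosis genes (of 25) at 10 CPM or more, and the dashed line marks the limit of 10 mitosis genes. Cells of each mouse spread from 0 or 1 to all 25 mitosis genes, with no gap at the limit.

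Immediate early genes, which rise within minutes of a stimulus and also during tissue dissociation, were higher in the median cell of mice 2 and 3 than of mouse 1, with overlapping ranges. The summed CPM of 16 such genes had a median of 2282 in mouse 1 (5.93 to 6637), 14982 in mouse 2 (2902 to 34776) and 8665 in mouse 3 (212 to 40452). Egr1, a zinc-finger factor, had medians of 95.6, 6771 and 3782 CPM, and Jun, a subunit of the AP-1 factor, of 1.66, 745 and 620 CPM. Jun reached 100 CPM in 2 of 39, 20 of 24 and 19 of 22 cells. Fos, its partner, differed less, with medians of 374, 1255 and 723 CPM. A part of the sort or dissociation of each animal in these values was not tested.

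Other gene lists also differed between cells. Of 30 gene lists, 15 had a highest cell at least 10 times the median cell in every mouse. A list whose median cell is near the floor meets this rule readily, as the mesothelial list below did, so the count is no measure of varying programmes. The hypoxia list did not meet it in every mouse. The hypoxia list had medians of 3415, 1747 and 894 CPM and a highest cell of 23050, 7609 and 10449, while Car9, a carbonic anhydrase induced by hypoxia, stayed at or under 99.6 CPM in every cell. The unfolded-protein list was high throughout, with medians of 5024, 7737 and 4299 CPM, led by the chaperone Hspa5 with medians of 2525, 4351 and 1944 CPM. The interferon list had medians of 604, 184 and 189 CPM. Its member Isg15, a ubiquitin-like interferon target, never exceeded 86.6 CPM, but Iigp1 and Oasl2 of the same list reached 5519 and 3215 CPM in their highest cells. Ifitm3, a membrane protein that restricts viral entry, had medians of 1579, 7409 and 2430 CPM.

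The gate could also hold host cells, and DNA gave a direct check in 74 cells. The hosts were male, and Y reads were scaled so that a CD45+ cell of the same DNA depth has a ratio of 1, over 3 Y bins. Of the 74 cells, 70 had a ratio of at most 0.0906, and 4 had 0.609 or more; the limit of 0.25 between them was chosen after the values were seen. The 70 cells thus had few Y reads or none. The 4 were cell 33 of mouse 1 (0.609, exact 95% Poisson interval 0.534 to 0.691, 237 reads), cell 54 of mouse 2 (0.990, 0.914 to 1.07, 637 reads), cell 88 of mouse 3 (1.22, 1.03 to 1.44, 147 reads) and cell 92 of mouse 3 (1.12, 0.985 to 1.26, 260 reads).

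In 3 of these 4 cells the DNA profile was flat as well. A cell was called near-flat when its spread was at or below 0.202, the 95th percentile of the 53 CD45+ cells, and cells 33, 88 and 92 were the only near-flat cells of the 74, at 0.189, 0.152 and 0.110. Cell 54 of mouse 2 had an uneven profile (0.350) of the chr12-low type together with Y reads at the host level. With the highest CD45+ cell as the limit instead, 47 of the 74 cells would be near-flat, so the class rests on the percentile. Among 11 cells under 50000 DNA counts, cell 50 of mouse 1 and cells 48 and 50 of mouse 2 had ratios of 0.722, 0.485 and 0.407 from only 3, 7 and 3 Y reads, with intervals of 0.149 to 2.11, 0.195 to 0.998 and 0.0839 to 1.19.

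The RNA of the near-flat cells was of different kinds. Cell 92 of mouse 3 held 13 of 14 macrophage genes at 10 CPM or more, with Lyz2 at 13627 CPM, the complement gene C1qb at 6043, Fcer1g at 2974, the lysosomal protein Cd68 at 2972 and Fcgr3 at 604, and its fibroblast and epithelial sums were 161 and 98.7 CPM. Cell 88 of mouse 3 held C1qa at 4130 and C1qb at 6391 CPM beside a fibroblast sum of 2990 CPM, and its RNA was like that of cell 89 (correlation 0.776), whose Y ratio was 0.0605. Cell 33 of mouse 1 held an epithelial sum of 21727 CPM, Epcam at 5618 CPM and a leukocyte sum of 125 CPM, with 3 leukocyte genes above the receptor-gene limit, Il1b at 690 and Fcer1g at 60.4 CPM. By its chromosome 12 and 8 ratios it is among the 29 chr8-low cells compared above. Without the 7 cells with Y reads, 78 cells remained, of which 53.8% were mitosis-marked and 19.2% leukocyte-marked by the rule given next.

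Leukocyte RNA was frequent in mouse 2. Cells with at least 5 of 12 leukocyte genes at 10 CPM or more numbered 5 of 39 in mouse 1 (12.8%, 4.30 to 27.4), 9 of 24 in mouse 2 (37.5%, 18.8 to 59.4) and 5 of 22 in mouse 3 (22.7%, 7.82 to 45.4). The number of leukocyte genes rank-correlated with the share of receptor genes at 10 CPM at 0.72, 0.79 and 0.81. Counted above the receptor genes, the numbers were 0, 9 and 1, so mouse 2 kept all its cells and mouse 1 none. Of these 10 cells 6 had enough DNA, and 2 of the 6, cell 54 of mouse 2 and cell 92 of mouse 3, had Y reads.

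In the other 4 (cells 37, 47, 59 and 60 of mouse 2), leukocyte RNA came with tumour DNA: their Y ratios were 0, 0.0154, 0.0224 and 0.0222, their DNA spreads 0.367, 0.397, 0.332 and 0.294, all of the chr12-low type, and their fibroblast sums 11307, 7244, 18530 and 16931 CPM. Many of the leukocyte genes recurred between cells of mouse 2. A set of 10 genes chosen after the values were seen (Il1b, C5ar1, Csf3r, Cxcr2, Srgn, Fcgr3, Fcer1g, Hdc, Clec4n and Cd14), most of them known from neutrophils and other myeloid cells, summed to 1000 CPM or more in 9 of 24 cells of mouse 2, against 1 of 39 and 3 of 22 in mice 1 and 3. In 8 of these 9 cells (cell 36, with other ratios, is described below) Il1b, an inflammatory cytokine, was at 15727 (cell 50), 12285 (cell 48), 6493 (cell 60), 4832 (cell 37), 3011 (cell 47), 775 (cell 59), 762 (cell 54) and 593 CPM (cell 40). The amount of the set therefore differed widely between cells.

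Across those 8 cells the ratio to Il1b varied by gene. It was 0.462 to 0.995 for C5ar1, the receptor of complement C5a, 0.191 to 0.420 for Csf3r, the receptor of the granulocyte growth factor, 0.118 to 0.363 for Fcgr3, a low-affinity Fc receptor, and 0.0507 to 0.178 for Hdc, which makes histamine. It was 0.105 to 0.827 for Cd14, a receptor for bacterial lipopolysaccharide, 0.0638 to 0.353 for the chemokine receptor Cxcr2, 0.0541 to 0.220 for Fcer1g and 0.0820 to 0.306 for the lectin Clec4n. Srgn, the proteoglycan of secretory granules, had a ratio of 0 to 0.187. Cell 40, with only 28684 RNA counts, gave the Srgn ratio of 0, the highest Cxcr2 ratio and the lowest Fcgr3 ratio. Those ends therefore rest on 1 shallow library. CPM is not scaled to gene length, so each ratio is compared between cells only, and since the genes and cells were picked with these values in view, the ratios are a description. S100a8, an abundant neutrophil gene, did not exceed 7.12 CPM in mouse 2. Cells 40 and 50 are also members of the pairs with like RNA, cell 40 with cell 45 (0.909) and cell 50 with cell 51 (0.706), and whether the set reached these libraries from another cell was not tested.

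Cell 36 of mouse 2 had a different leukocyte profile. It held the class II genes H2-Ab1 at 61876, Cd74 at 57957 and H2-Aa at 23760 CPM, with 11 of 12 leukocyte genes, Il1b at 9199, Cd68 at 2640 and Csf1r, the macrophage growth factor receptor, at 743 CPM. Its C5ar1 to Il1b ratio was 0.00448, its Csf3r, Fcgr3 and Hdc were at 0, and its fibroblast sum was 0. It was also shallow, with 24242 RNA counts and 4384 DNA counts, so its DNA could not be classed. The class II list had a median sum of 65.8, 8.89 and 52.9 CPM in the 3 mice, with single cells far above it: the highest cell of mouse 1 reached 22050 CPM and that of mouse 3 (cell 82) 3376 CPM. Cd74, the invariant chain, reached 100 CPM in 15 of 39, 2 of 24 and 3 of 22 cells.

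**Figure D5:**
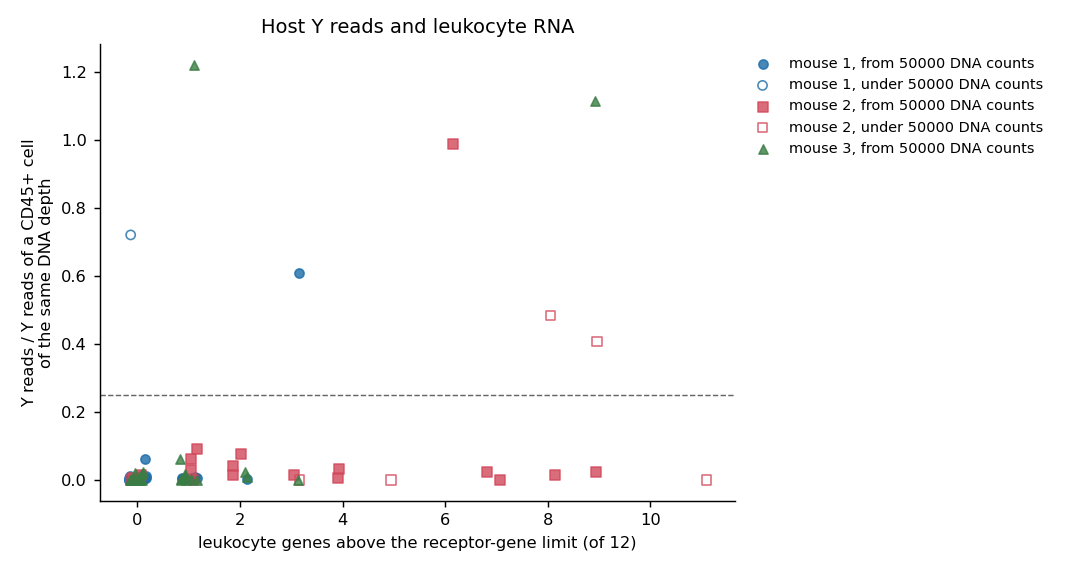
Each point is 1 cell; the x axis counts leukocyte genes (of 12) above the receptor-gene limit of the cell and the y axis gives Y reads relative to a CD45+ cell of the same DNA depth, with open points under 50000 DNA counts and the dashed line at 0.25. Most points lie at the lower left, cells 54 of mouse 2 and 92 of mouse 3 are high on both axes, and 4 cells of mouse 2 hold 7 to 9 leukocyte genes with a ratio near 0.

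Markers of other cell types that a peritoneal sort could hold were low in the median cell. The sums in mice 1, 2 and 3 were 8.03, 0.616 and 3.80 CPM for 11 T and natural killer genes, 6.13, 0 and 2.21 for 6 B cell genes, 23.9, 0.351 and 33.6 for 10 endothelial genes, 26.9, 0 and 13.3 for 9 mesothelial genes and 2.75, 0.496 and 6.46 for 12 acinar genes. Single cells reached sums of 583, 223 and 521 CPM for the endothelial list and of 416, 151 and 178 CPM for the mesothelial list. Among endothelial genes Pecam1 reached at most 62.9, 27.7 and 68.9 CPM, but Tie1 reached 489 CPM in 1 cell of mouse 1 and Vwf 369 CPM in 1 cell of mouse 3. Among mesothelial genes Upk3b reached at most 11.3, 0 and 15.9 CPM, but Msln reached 100 CPM in 3 cells of mouse 1 (highest 414). Fibroblast genes cannot serve in the same way, because cells with uneven DNA and few Y reads held them at high levels.

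Some cells stood apart from their mouse. The median rank correlation of a cell with the others of its mouse was 0.335 over all 85 cells and lowest in cell 54 of mouse 2 (0.207), cell 96 of mouse 3 (0.209), cell 36 of mouse 2 (0.216), cell 92 of mouse 3 (0.233) and cell 47 of mouse 2 (0.240). All of these but cell 96 held leukocyte genes above the receptor-gene limit. Cell 96 had 78657 RNA counts, of which 26.7% were assigned to Lars2, the gene of a mitochondrial leucyl-tRNA synthetase. Whether the reads counted for Lars2 came from its own transcript was not tested. Lars2 took 43.4% in cell 84 and 38.02% in cell 83 of mouse 3, was the most abundant gene in 14 of 85 cells, and stood behind Rn45s, the precursor of ribosomal RNA, which led 26 cells. Malat1, a nuclear noncoding RNA, led 14 cells and Spp1 led 10.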

How the data were processed

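The authors deposited RNA values in the unit of expected counts per gene (used unrounded; 96.9% were whole numbers) and DNA reads as counts in 5000 genome bins. Per the labels and the series' design text, exonic reads went to the RNA and the remaining reads to the DNA. The submitters' processing notes name STAR, kallisto, Bowtie 1.0 and mm9 with no roles. Of 24520 RNA rows, 92 spike-in rows and 4 rows with repeated symbols were left out and 24424 were kept; 27 symbols are stored as dates and are not named. The 2 doubly sequenced cells were averaged: their DNA counts differed by a chi-square per degree of freedom of 0.735 and 0.854, less than sampling noise, against at least 1.23 in 818 other pairs of mouse 1, and their RNA counts by 5.82 and 1.73, more than sampling noise.

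CPM was computed from the counts of each cell. Clustering used log2(CPM + 1), 1500 variable genes, 10 principal components and Ward linkage, with the number of clusters from 2 to 6 taken by silhouette. Correlations are Spearman's within a mouse, over genes with a count in at least 30% of cells of each mouse. DNA needed 50000 counts a cell, and the scripts were tested on simulated data. Cells were sorted singly and no doublet caller was run. The replicate is the mouse, there is 1 condition, and no p-value is given. Members, gene lists, limits and tests were chosen with earlier results of these data known. Named genes were the given markers, up to 4 members per list (largest median or widest range), the 20 most uneven genes, up to 8 leading genes per cluster and up to 8 neighbours per marker. Further list members that carry a comparison (the genes of the 2 DNA types, Car9, Isg15, Pecam1, Tie1, Vwf, Upk3b, Msln, S100a8 and the myeloid set) were named after their values were seen. Alternatives were other class limits, filters, pseudocounts, gene numbers, depths, references and each mouse left out. Work was done in Python 3.11.15 with numpy 2.4.6, pandas 2.3.3, scipy 1.17.1, scikit-learn 1.9.0 and matplotlib 3.10.9.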

Additional observations from a re-analysis of the deposited data

How the results depend on the processing

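Of 233 recomputed values over 32 results, 213 stayed within the spread or the count limit of the value reported and 20 moved. The share of mitosis-marked cells, 52.9%, was 65.9% with 8 genes, 37.6% with 13 genes, 64.9% over 74 cells thinned to 100000 counts (11 shallower cells left out) and 37.6% above receptor genes. The share of leukocyte-marked cells, 22.4%, was 40% with 3 genes, 12.9% with 7 genes and 11.8% above receptor genes. The mean over mice of the median mitosis sum, 1229 CPM, was 1653 without cells with Y reads. The number of clusters, 3, became 6 with genes centred on the mouse mean and 5 with log2(CPM + 10), and the 6 cells of mouse 1 in the cluster of the other mice became 3 with 500 genes, 15 with 3000 genes and 0 under the stricter cell filter. The mean over mice of the median correlation of all genes, 0.142, was 0.0588 given the number of genes detected. The 3 near-flat cells became 47 with the highest reference cell as limit. The difference in DNA spread of leukocyte-marked cells, -0.0305, was -0.0557 with 7 genes. Leaving out each mouse in turn gave 1 to 30 chr8-low cells (30 in all), 22 to 33 chr12-low cells (39 in all) and 1 to 3 near-flat cells, by fewer cells alone. The RNA comparison of uneven with near-flat cells, with its alternatives, was not run, since no mouse held 3 near-flat cells. No paired analysis was possible because there is 1 condition and no result comes from a test. Shallow cells limit DNA classes (11 of 85 under 50000 DNA counts) and reads from genomic DNA limit low RNA values.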

Other observations

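Values of cells whose DNA pattern stood alone belong to no comparison above. Cell 46 of mouse 2 was the only chr8-low cell outside mouse 1, with a chromosome 12 minus chromosome 8 log2 DNA ratio of 0.78, a DNA spread of 0.433 and a Y ratio of 0.0317; its RNA was in the Col1a1 cluster, and its log2 ratio of epithelial to fibroblast sum was -7.65. Cell 35 of mouse 1 was the only chr8-low cell of that mouse in the Col1a1 cluster, with Vim at 2135 CPM, an epithelial sum of 144 CPM and a fibroblast sum of 13417 CPM. Cells 77, 79, 88, 89 and 92 of mouse 3 were of neither DNA type, at 0.17, -0.18, 0.09, 0.00 and 0.04; cells 77, 88 and 89 are members of the pairs with like RNA, and cells 88 and 92 are the near-flat ones.

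Of lists not described above, the cholesterol synthesis list had medians of 1272, 462 and 487 CPM in mice 1, 2 and 3, and the ribosomal list medians of 4643, 7515 and 6641 CPM. Genes of the classical pancreatic lineage list had a median sum of 675, 235 and 252 CPM; among them Sox9, a duct and progenitor factor, reached 100 CPM in 15 of 39, 13 of 24 and 13 of 22 cells, and Tff1, a mucosal trefoil peptide, in 1 of 39 cells and no other.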
